A study of Homo sapiens with 30 samples.

Results

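Regions of the K562 genome that were called with the H3K27ac antibody Abcam-ab177178 and not with Abcam-ab4729, or the reverse, were collected from 8 CUT&Tag peak lists. A region was taken as private to an antibody when at least 3 of its 4 lists held it and none of the 4 lists of the other antibody did. Peaks of the 8 lists on chromosomes 1 to 22 and X that shared at least 1 bp were merged into 19865 regions. Of these, 632 regions were private to ab177178 and 195 were private to ab4729, 827 in all. A further 2755 regions were held by 3 or 4 lists of each antibody and are called shared below.

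The series holds 30 libraries of K562, an established line from a chronic myeloid leukaemia that carries the BCR-ABL1 fusion, with 500000 growing cells per experiment. The libraries differ in the antibody and its dilution, in the addition of the histone deacetylase inhibitor TSA, in DNA extraction and in the number of PCR cycles. The 8 libraries compared here were all untreated (no TSA) and all used the antibody at 1/100. For each antibody they comprised 1 library with SDS extraction and 1 with column extraction at 11 PCR cycles, and the same pair at 13 cycles. The 4 libraries of an antibody therefore differ in protocol, no protocol was repeated, and the labels do not say whether separate cultures were used. A test between antibodies here measures the difference against the spread over protocols, which may be technical.

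CUT&Tag directs a transposase to antibody-bound chromatin, so that DNA near the mark is cut, tagged and sequenced. Acetylation of histone H3 at lysine 27 marks active promoters and enhancers. Trimethylation of the same lysine is laid down by the Polycomb complex and marks silenced regions, and a single H3 tail cannot carry both at that residue. As background, ab4729 is a polyclonal antibody widely used in ChIP-seq and ab177178 is a monoclonal.

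Peaks and not reads were deposited, so read depth is unknown, and the 8 lists are the ones labelled as downsampled. Each list was described by its peak number, covered length, median peak width and 3 measures of location, and these 6 were tested. Values given for each of the 4 downsampled lists of an antibody stand in a fixed order. It is SDS at 11 cycles, column at 11 cycles, SDS at 13 cycles and column at 13 cycles.

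The ab177178 lists held more peaks than the ab4729 lists. They had 10768, 9096, 8149 and 8210 peaks, against 5780, 6636, 6269 and 4665 for ab4729. The groups did not overlap, the ab177178 lists were 1.55-fold larger (0.64 on the log2 scale, n = 4 lists each), and the 2-sided exact permutation p was 0.0286, the smallest that 4 lists against 4 can give. After Benjamini-Hochberg adjustment over the 6 measures the p was 0.129, so the difference did not pass. Peaks of ab177178 covered 11.4, 8.67, 11.5 and 10.5 Mb and those of ab4729 7.84, 11.2, 7.01 and 6.69 Mb. These groups overlapped (difference 0.38 in log2, exact permutation p = 0.0857, adjusted 0.129), and with every list limited to its 4665 strongest peaks by total signal the difference turned to -0.0458. Median peak widths were 919, 838, 1231 and 1125 bp for ab177178 and 1208.5, 1529, 999 and 1287 bp for ab4729, which also overlapped (-0.29 in log2, exact permutation p = 0.171, adjusted 0.206).

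The ab177178 lists differed among themselves in how often their peaks fell on H3K27me3. H3K27me3 regions were those held by at least 3 of the 4 downsampled lists of the CST9733 antibody (30533 regions). The share of peaks on them was 9.67, 12.8, 3.45 and 2.74% for ab177178 and 3.29, 2.22, 2.70 and 2.66% for ab4729. The 2 ab177178 libraries at 11 cycles stood above all the others, and those at 13 cycles lay near the ab4729 lists. The mean difference was 4.44 percentage points (7.16 ± 4.86 against 2.71 ± 0.44, SD, n = 4 each), and it was 8.46 at 11 cycles and 0.42 at 13 cycles. The exact permutation p was 0.0571 and the adjusted p 0.129. The difference was 2.91 points against the CST9733 list of the same extraction and cycle number, where the ab4729 column list at 11 cycles reached 19.3%. It was 2.77 with the copy-number-rich windows described next left out, and 2.57 without the ab177178 column list at 11 cycles.

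**Figure D1:**
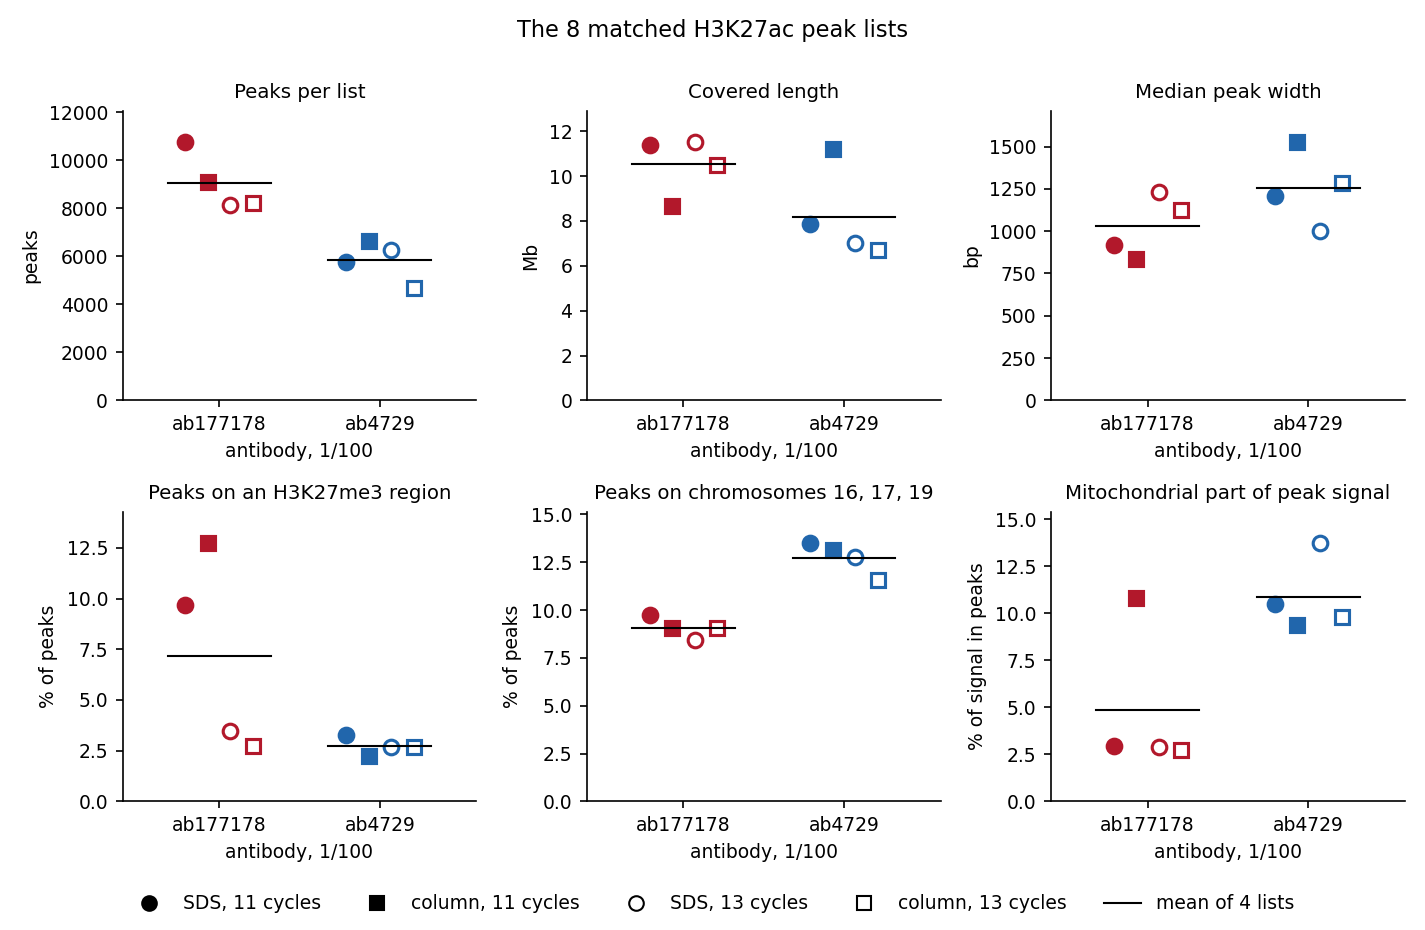
Measures of the 8 lists by antibody, on axes that start at 0. Circles are SDS and squares column extraction, filled symbols 11 and open symbols 13 cycles, and the line is the mean of 4 lists. Peak number and the share of peaks on chromosomes 16, 17 and 19 do not overlap between the antibodies. These chromosomes were grouped after their values had been seen. The share on H3K27me3 regions is high only in the ab177178 lists at 11 cycles.

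The copy-number-rich windows are 6 bins of 1 Mb (hg19), chr22:19000001-24000000 and chr9:133000001-134000000, where K562 is known to carry extra copies around BCR and ABL1. Copy number was not measured in these files, and the windows were singled out in an earlier look partly from the ab177178 SDS list at 11 cycles. Of the ab177178 peaks 6.07, 6.39, 2.98 and 2.14% lay in the windows, against 1.70, 1.34, 2.46 and 2.21% of the ab4729 peaks. Again the 2 ab177178 lists at 11 cycles were the high ones. The difference was 2.47 percentage points (exact permutation p = 0.0857, adjusted 0.129), with 4.71 at 11 cycles and 0.23 at 13 cycles. The share of peaks within 1 Mb of the outermost peaks of a chromosome was 4.41% on average for ab177178 and 4.55% for ab4729 (exact permutation p = 0.83, adjusted 0.83). None of the 6 measures passed the adjusted threshold of 0.05. At an unadjusted p under 0.05 only peak number did.

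On average, lists of the same antibody shared more of their sequence than lists of different antibodies, mainly in the ab4729 pairs. The Jaccard index, the length covered by both lists over the length covered by either, averaged 28.6% for pairs of the same antibody and 25.3% for pairs of different antibodies. The difference of 3.28 percentage points had an exact permutation p of 0.0286 over the 35 distinct splits of the 8 lists (adjusted 0.0429 over 3 further tests). It was lost when antibody labels were exchanged only within the same extraction and cycle number (exact p = 0.13, the smallest possible) and when any 1 of the ab4729 lists was left out (difference 2.21 to 2.67).

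The closeness was uneven. The mean index was 26.1% for ab177178 pairs, near the 25.3% of different-antibody pairs, and 31.1% for ab4729 pairs. The 2 ab177178 lists at 13 cycles had an index of 37.7% with each other, close to the 37.5% of the 2 ab4729 lists at 11 cycles. The same 2 ab177178 lists had indices of 22.7 to 25.8% with the ab177178 lists at 11 cycles and of 26.6 to 33.5% with the 4 ab4729 lists. The 2 ab177178 lists at 13 cycles thus lay nearer to every ab4729 list than to the 11-cycle lists of their own antibody. Pairs that shared the extraction differed from pairs that did not by -1.45 percentage points, and pairs that shared the cycle number by 0.94.

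Private regions were a small part of the merged regions of the 8 lists. Of the 19865 merged regions, 3.18% were private to ab177178 and 0.982% to ab4729. The merged regions include 7656 in a single ab177178 list and 1512 in a single ab4729 list. The shares are therefore not of either antibody's calls alone. All 4 lists held 152 of the 632 ab177178 regions and 23 of the 195 ab4729 regions, and the others were in 3 lists. All 8 lists held 1276 regions. The order of these numbers was not kept at equal list sizes. With each list limited to its 4665 strongest peaks, 207 regions were private to ab177178 and 306 to ab4729. Both numbers also depended on single libraries. Leaving out each list in turn gave 243 to 850 regions for ab177178 and 37 to 302 for ab4729.

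Just outside the rule, 1561 regions were in 2 ab177178 lists and no ab4729 list, and 675 were in 3 or 4 ab177178 lists and 1 ab4729 list. For ab4729 these numbers were 392 and 338. Regions held by a single list numbered 7656 for ab177178 and 1512 for ab4729.

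**Figure D2:**
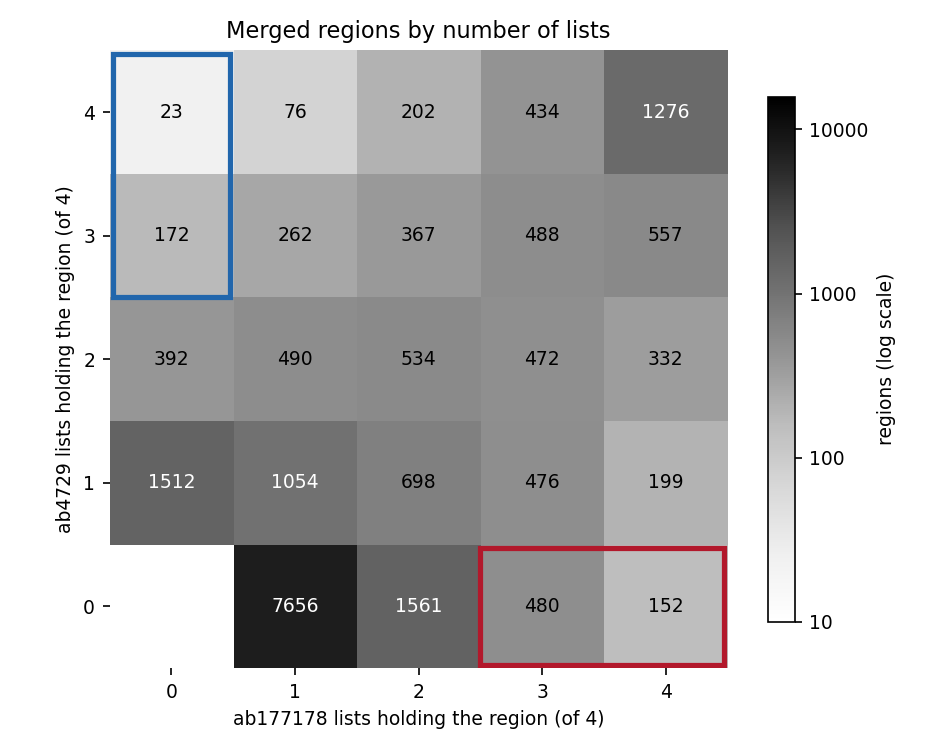
Number of merged regions by how many ab177178 lists (x axis, 0 to 4) and ab4729 lists (y axis, 0 to 4) hold them, with shade on a log scale. The red frame marks the 632 regions private to ab177178, the blue frame the 195 private to ab4729, and the largest field is the 7656 regions of a single ab177178 list.

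Private regions were narrower than shared ones and sat lower in the lists that held them. Median widths were 1563 bp for regions private to ab177178 (10th to 90th percentile 983.4 to 2884.5 bp), 1709 bp for ab4729 (1270.6 to 2449.6 bp) and 2559 bp for shared regions, against 1245 bp for all merged regions. A region held by more lists is merged from more peaks, which bears on these widths. Total signal, the authors' sum of signal over a peak, was turned into a rank percentile within each list. Peak width therefore enters the rank. Private and shared regions were also chosen from these same lists, which bears on their ranks. Regions private to ab177178 had median percentiles of 61.3, 59.1, 40.6 and 42.6, where shared regions had 76.8 to 79.2. They ranked higher in the 2 lists at 11 cycles. Regions private to ab4729 had median percentiles of 34.9, 47.6, 44.5 and 37.0, where shared regions had 68.6 to 73.3. In the ab177178 lists at 11 cycles 24.8% and 25.9% of the private regions held were above the 80th percentile, against 6.11% and 6.39% at 13 cycles.

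The private regions of the antibodies were spread over the chromosomes in different proportions. Chromosomes 16, 17 and 19, which are gene-rich, held 71 of the 195 regions private to ab4729 (36.4%, Wilson 95% interval 30.0 to 43.4) and 36 of the 632 private to ab177178 (5.70%). They held 7.88% of shared regions, and the background over all merged regions was 11.7%. Chromosome 19 alone held 36 ab4729 regions (18.5%) and 10 ab177178 regions (1.58%), beside 4.79% of all merged regions. Chromosomes 2, 3 and 4 together held 11 ab4729 regions (5.64%), 128 ab177178 regions (20.3%) and 19.7% of shared regions, beside 16.4% of all. On chromosome 22 lay 58 ab177178 regions (9.18%) and 4 ab4729 regions (2.05%), beside 4.82% of all. On chromosome 9 the numbers were 46 (7.28%) and 5 (2.56%), beside 4.64% of all. On chromosome 1 the private sets had equal shares, 10.8% each. Chromosomes 16, 17 and 19 were grouped after their values had been seen, so no test was made.

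**Figure D3:**
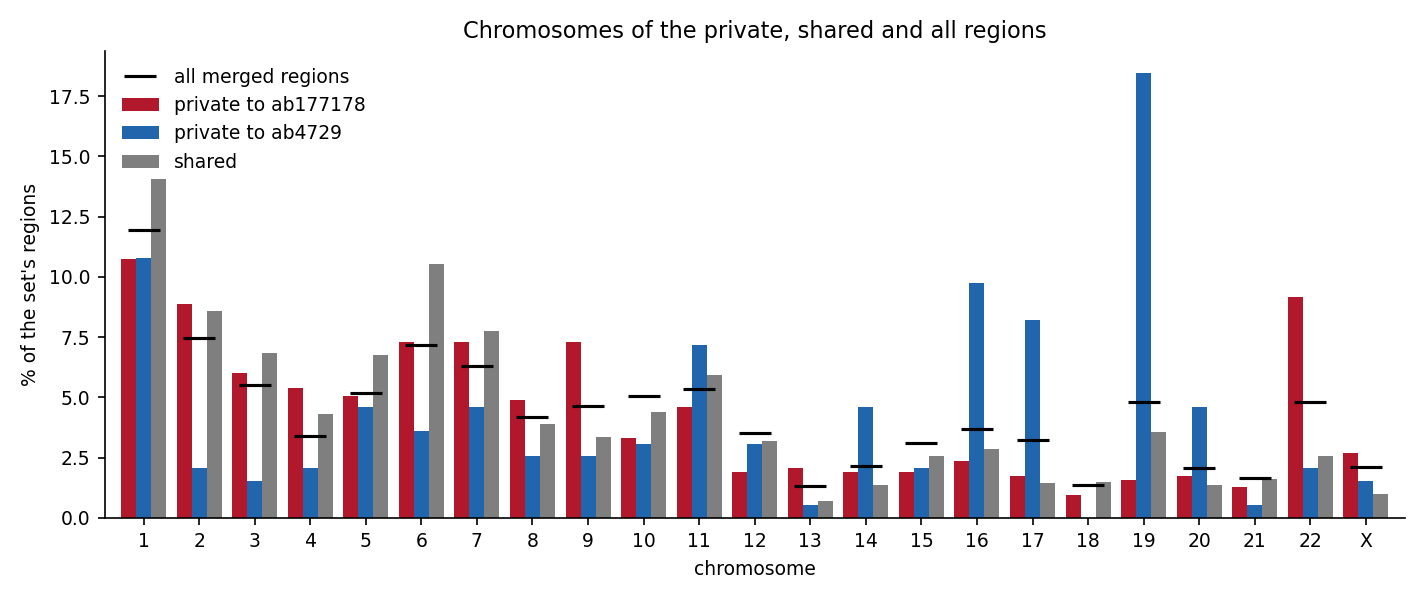
Share of each set's regions (y axis, %) on chromosomes 1 to 22 and X (x axis), with bars for regions private to ab177178 (red), private to ab4729 (blue) and shared (grey), and a black dash for all merged regions. The ab4729 regions stand highest on chromosome 19 at 18.5%, and the ab177178 regions exceed the other sets on chromosomes 9 and 22.

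The same contrast was present in the whole downsampled lists, but not at 15 cycles. The private regions were chosen from these downsampled lists, so the likeness is no separate support, and no test was made. Chromosomes 16, 17 and 19 held 9.72, 9.08, 8.44 and 9.05% of ab177178 peaks and 13.5, 13.2, 12.8 and 11.6% of ab4729 peaks. The groups did not overlap. Among the 4665 strongest peaks of each list the shares were 8.79, 7.80, 7.63 and 7.61% for ab177178 and 13.1, 12.3, 12.6 and 11.6% for ab4729, again apart. In the untreated 15-cycle lists, 1 library each, the shares were 16.3% for ab177178 and 15.0% for ab4729, in the opposite order. The downsampled lists of 2 other H3K27ac antibodies lay between 11.5 and 14.7% for Diagenode C15410196 at 1/50 and between 14.2 and 16.9% for Active Motif at 1/100. The share of peak signal that fell on mitochondrial DNA also differed, at 2.93, 10.8, 2.87 and 2.72% for ab177178 and 10.5, 9.40, 13.8 and 9.79% for ab4729, and its part in these differences was not tested.

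Regions within 1 Mb of a span of at least 1 Mb in which no SEACR list of the series had a peak made up 23.6% of those private to ab177178 (149 regions), 2.56% of those private to ab4729 (5 regions) and 17.3% of shared regions. The background was 14.9%. This measure was added after the strongest regions had been seen. Within 1 Mb of the outermost peaks of a chromosome lay 16 ab177178 regions (2.53%) and 9 ab4729 regions (4.62%), against a background of 4.84%. Median distances to the nearest shared region were 122220 bp for ab177178, 181811 bp for ab4729 and 153585 bp for all merged regions.

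H3K27me3 regions overlapped 96 of the 632 regions private to ab177178 (15.2%, Wilson 95% interval 12.6 to 18.2) and 7 of the 195 private to ab4729 (3.59%, 1.75 to 7.22). Shared regions overlapped in 2.72%, and the background was 8.38%. Regions in 2 ab177178 lists or a single ab177178 list, and in no ab4729 list, overlapped in 14.2% and 14.9%, much as the private ones did. Most of the ab177178 overlap lay in the copy-number-rich windows, which held 76 ab177178 regions (12.03%), 3 ab4729 regions (1.54%) and 2.29% of shared regions, with a background of 4.05%. The CST9733 peaks that define H3K27me3 regions were themselves dense in the windows. At least 1.339% of the peaks of each downsampled CST9733 list lay there, though the windows make up 0.203% of the span examined. How far this density enters the overlap was not tested. Inside the windows 62 of the 76 ab177178 regions overlapped H3K27me3 (81.6%), against 52.6% of all 804 merged regions there and 6 of the 63 shared ones. Outside the windows the shares were 6.12% (34 of 556) for ab177178, 3.65% (7 of 192) for ab4729 and 6.51% for all merged regions. Shared regions there overlapped in 2.56% (69 of 2692). Outside the windows, then, the ab177178 share was near the background and above that of shared regions. The background itself includes the 7656 regions of a single ab177178 list, of which 14.9% overlapped H3K27me3 with the windows counted. For the 1512 regions of a single ab4729 list the share was 0.794%.

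Of the 76 ab177178 regions, 37 were at 23 to 24 Mb and 12 at 22 to 23 Mb of chromosome 22, and 21 in the chromosome 9 window. H3K27me3 regions overlapped 32, 9 and 19 of them. The remaining 3 windows, at 19 to 22 Mb of chromosome 22, held 2 each. Shared regions were spread otherwise, with 6, 13 and 2 in the first 3 bins named and 11, 12 and 19 in the other bins from 19 Mb upward.

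The ab177178 private regions that overlapped H3K27me3 were mostly held by both downsampled lists at 11 cycles. The lists that split the regions here also chose them, and those at 11 cycles had the higher shares on H3K27me3. The contrast is therefore no separate support. Of the ab177178 regions missing from the SDS list at 11 cycles (103) or the column list at 11 cycles (154), 0.971% and 0.649% overlapped H3K27me3. Of those missing from the SDS list at 13 cycles (92) and the column list at 13 cycles (131), 18.5% and 41.2% did, and 38.2% of the latter lay in the windows. Regions in all 4 lists overlapped in 15.1%. Chosen without the SDS or the column list at 11 cycles, the private regions overlapped H3K27me3 in 9.30% and 7.77%, and chosen without the column list at 13 cycles in 27.1%. At equal list sizes the share was 23.7%. In the untreated 15-cycle lists 9.40% of ab177178 peaks and 1.964% of ab4729 peaks lay on H3K27me3 regions, so the ab177178 share was as high there as in the SDS list at 11 cycles.

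**Figure D4:**
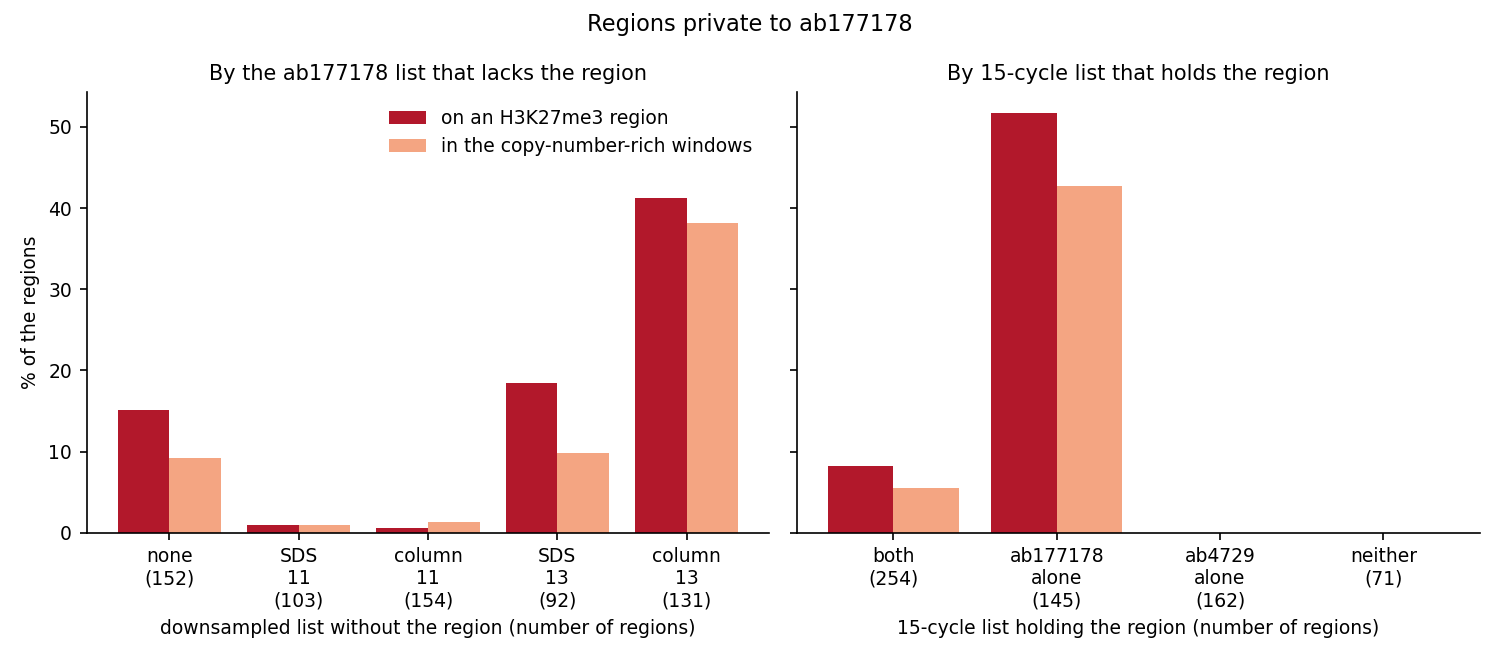
Share (y axis, %) of regions private to ab177178 on an H3K27me3 region (red) and in the copy-number-rich windows (orange), by the downsampled ab177178 list that lacks the region (left) and by the untreated 15-cycle list that holds it (right), with numbers of regions in brackets. Both shares are highest for regions lacking in the column list at 13 cycles and for regions held by the ab177178 15-cycle list alone.

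Taken singly, the CST9733 lists gave a similar contrast, beside a library that stood apart. The H3K27me3 regions above were built from these same 4 lists, so the likeness was built in and is no separate support. The single lists overlapped 17.1, 21.0, 16.1 and 16.1% of regions private to ab177178 and 2.56, 12.3, 6.15 and 4.10% of those private to ab4729. Of all merged regions they overlapped 9.74, 17.5, 10.2 and 8.87%, so the column list at 11 cycles set the ab177178 regions least apart from the rest. The column list at 11 cycles also overlapped 30.5% of the shared H3K27ac regions, where the other CST9733 lists overlapped 3.01 to 5.12%. The mean difference between the private sets was 11.3 ± 2.53 percentage points (SD, n = 4 lists), higher for ab177178 in 4 of 4 lists, with an exact sign-flip permutation p of 0.13, the smallest that 4 lists allow. It was 4.72 points for regions private in all 4 lists (exact p = 0.5), 2.33 with the windows left out, 12.2 without the column list at 11 cycles, and 2.82 to 24.3 when the members were chosen without each of the 8 lists.

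The strongest private regions were, for each antibody, the 10 that ranked highest on average by total signal among its private regions found in all 4 lists. Positions are hg19 and counted from 1, and no gene is assigned because the annotation at hand was of another build. The first for ab177178, chr15:20506638-20510612 (3975 bp), had maximum signals of 8, 6, 7 and 10. It had no H3K27me3 region as defined here, though 2 CST9733 lists overlapped it, and 4 of the 8 Diagenode and Active Motif lists held it. The next, chr2:91743790-91747515, had maximum signals of 8, 6, 8 and 7, overlapped an H3K27me3 region and lay beside a span without peaks. The third, chr9:133886064-133891595 in the chromosome 9 window, had maximum signals of 8, 9, 8 and 7 and an H3K27me3 region. These 3 regions were called by both antibodies at 15 cycles.

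The widest region private to ab177178, chr22:23269477-23276275 (6799 bp), lay in the chromosome 22 window. Its maximum signals were 9, 9, 8 and 8, and it overlapped an H3K27me3 region. The next widest, chr22:23262038-23268163 (6126 bp), ended less than 2 kb before it and was absent from the column list at 13 cycles. Outside the windows, chr1:219261795-219262761 was narrow (967 bp), had the highest maximum signal of the 10 in the SDS list at 13 cycles (values 9, 5, 15 and 13) and had no H3K27me3 region. Neither chr16:33310177-33312961 nor chr21:15357691-15360094 was in any of the 8 Diagenode and Active Motif lists or in the untreated ab4729 list at 15 cycles. Of the 10 regions, 4 overlapped an H3K27me3 region and 3 lay in the windows. Some of the others overlapped CST9733 lists without meeting that definition. Beside the first region, chr22:22645361-22648149 overlapped 2 of these lists and chr21:15357691-15360094 overlapped 3. The untreated 15-cycle lists of ab177178 and ab4729 held 9 and 8 of the 10 regions.

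The 10 strongest regions private to ab4729 had mean percentiles of 49.1 to 70.4, and those private to ab177178 79.2 to 96.6. They were taken from 23 and 152 regions, so these ranges are not compared. The first, chr19:48866070-48868559 (2490 bp), had maximum signals of 7, 11, 8 and 6 and was in 6 of the 8 Diagenode and Active Motif lists. The next, chr16:22201534-22202960, had maximum signals of 8, 16, 8 and 8, was in 7 of those lists, and was the only region of the 10 that overlapped an H3K27me3 region. The fourth, chr1:154908645-154910736, had maximum signals of 10, 17, 5 and 7 and was in 6 of them. In 6 of the 10 the chromosome was 16, 17 or 19, and 1 region lay in the windows. The untreated ab4729 list at 15 cycles and at least 1 Diagenode or Active Motif list held all 10, and the ab177178 list at 15 cycles held 7.

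Lists of the 2 other H3K27ac antibodies, which played no part in choosing the regions, held a smaller share of the ab177178 regions than of the ab4729 regions. The 4 Diagenode lists overlapped 10.3, 25.5, 21.7 and 11.4% of regions private to ab177178 and 28.7, 46.7, 55.4 and 13.3% of those private to ab4729. The 4 Active Motif lists overlapped 10.4, 28.3, 16.8 and 11.1% and 34.9, 57.4, 44.6 and 22.6%. Every list was lower for ab177178, though in the Diagenode column list at 13 cycles the Wilson intervals overlapped. Means were 16.9% ± 7.33 for ab177178 and 37.9% ± 15.8 for ab4729 (SD, n = 8 lists), beside 69.2% for shared regions and 21.99% for all merged regions.

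The difference was -21.0 ± 10.3 percentage points (SD), with a 2-sided exact sign-flip permutation p of 0.00781, the smallest possible for 8 lists, and 0.0234 after adjustment over 3 tests. This p measures the spread over the 8 Diagenode and Active Motif lists, with the 2 sets of private regions held fixed. It does not measure the spread over the ab177178 and ab4729 libraries that chose the regions. The difference was -22.01 with members chosen at equal list sizes, -11.1 when 50% of a region had to be covered, and -13.9 when members were chosen without the ab4729 column list at 11 cycles. With 4 lists of 1 antibody the test cannot pass (exact p = 0.13), and the differences were -18.8 for Diagenode and -23.2 for Active Motif. No Diagenode or Active Motif list held 226 of the ab177178 regions (35.8%), 22 of the ab4729 regions (11.3%) and 14 shared regions, against 46.0% of all merged regions, which is above the ab177178 share. At least 3 of these lists held 17.6% of the ab177178 and 56.4% of the ab4729 regions, against 28.3% of all merged regions. All merged regions include many held by a single list, so they are unlike the private sets.

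**Figure D5:**
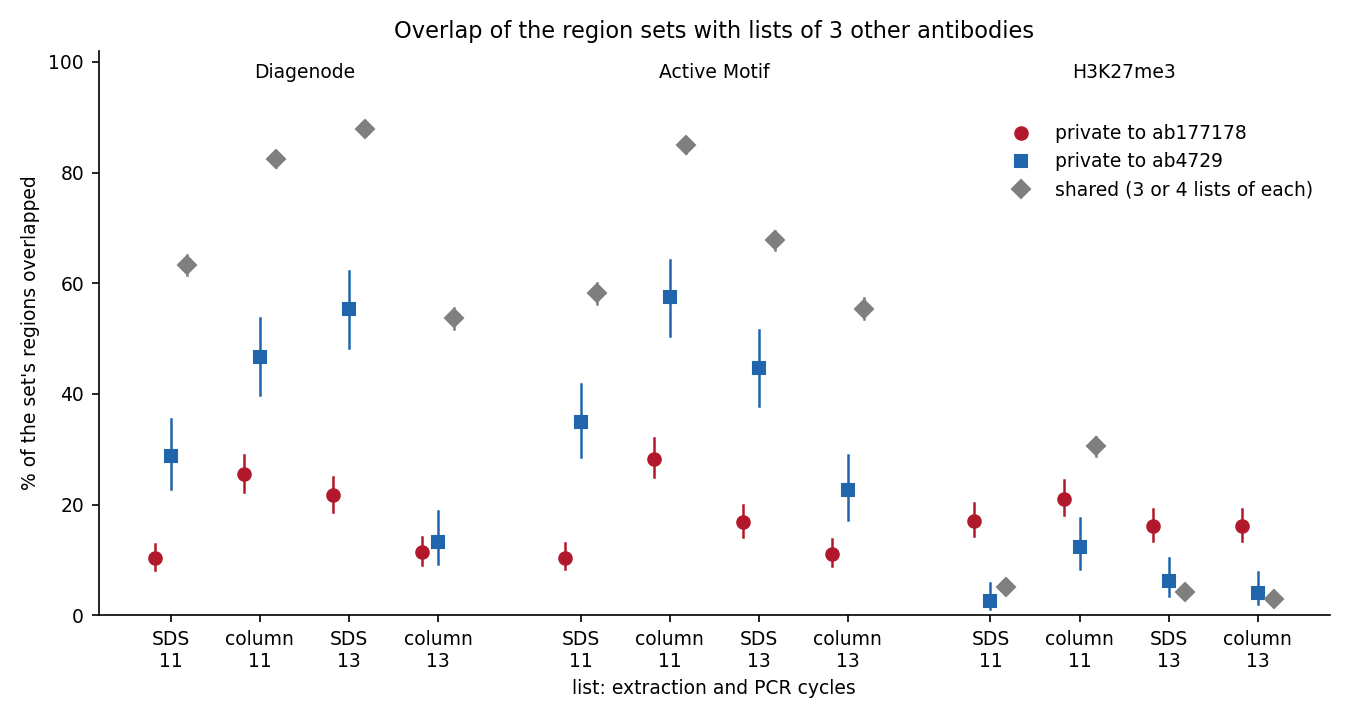
Share of each region set overlapped (y axis, %, with Wilson 95% intervals over regions) by each of 4 Diagenode, 4 Active Motif and 4 H3K27me3 (CST9733) lists (x axis, extraction and cycles). Regions private to ab177178 (red) lie below those private to ab4729 (blue) in the 8 H3K27ac lists and above them in the 4 H3K27me3 lists.

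At 15 cycles each condition had 1 library with SDS extraction, so values there have no replicate check, and these lists are not labelled as downsampled. The untreated ab177178 list (16623 peaks) held 63.1% of the regions private to ab177178 and 39.5% of those private to ab4729, beside 86.2% of shared and 47.7% of all merged regions. The untreated ab4729 list (13394 peaks) held 65.8% and 97.4%, beside 99.9% of shared and 62.3% of all merged regions. The ab4729 list thus held the ab177178 regions at a share near that of all regions. All merged regions include 7656 held by a single ab177178 list and 1512 held by a single ab4729 list. Private regions are in at least 3 lists, so the sets compared are unlike. By MACS2, run on the same 15-cycle libraries, the ab177178 list held 50.0% and 24.1%, beside 31.1% of all merged regions. The ab4729 list by MACS2 held 79.1% and 99.5%, beside 67.8% of all.

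Split by these 2 lists, the ab177178 regions fell into unlike groups. Both held 254 of them, the ab177178 list alone 145 (22.9%), the ab4729 list alone 162 and neither 71. Of all 19865 merged regions both held 7383, the ab177178 list alone 2083, the ab4729 list alone 4990 (25.1%) and neither 5409. H3K27me3 regions overlapped 51.7% of the 145, and 42.8% of the 145 lay in the copy-number-rich windows. For the 254 these shares were 8.27% and 5.51%. None of the 162 and none of the 71 overlapped an H3K27me3 region or lay in the windows. In the ab177178 list alone, and in none of the 8 Diagenode and Active Motif lists, were 62 regions. The matching number over all merged regions was not computed. Of the 195 ab4729 regions, both lists held 75, the ab4729 list alone 115 (59.0%), the ab177178 list alone 2 and neither 3.

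The 2 TSA lists of these antibodies each held a larger share of the regions private to the other antibody than of those private to their own. The list labelled ab4729 with TSA (22808 peaks) held 87.8% of the regions private to ab177178 and 43.1% of those private to ab4729, beside 59.2% of all merged regions. The list labelled ab177178 with TSA (7056 peaks) held 18.4% and 49.2%, beside 25.9% of all. Mean Jaccard indices were 23.3% with the ab177178 lists and 18.3% with the ab4729 lists for the former, and 19.6% and 22.3% for the latter. Each TSA list was thus nearer, on average, to the downsampled lists of the other antibody. The untreated 15-cycle lists had indices of 18.9% and 15.5% for ab177178 and of 18.3% and 17.8% for ab4729, so the untreated ab4729 list was not nearer to its own antibody either. Chromosomes 16, 17 and 19 held 9.72% of the peaks of the ab4729 TSA list and 16.6% of those of the ab177178 TSA list, the latter close to the 16.3% of its untreated list. Whether the labels of the 2 TSA lists were exchanged was not tested. Treatment, library and peak number differ together in these lists and cannot be told apart.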

How the data were processed

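Peak lists of K562 CUT&Tag libraries were used as the authors deposited them, with coordinates on hg19. The submitters' processing notes name SEACR and MACS2 for peaks, Bowtie2 2.2.9 and Trim Galore 0.6.6 for reads, and bedtools 2.25.0, Picard 2.6.0 and SAMtools 1.3.1. The SEACR lists give, per the file's layout, a total and a maximum signal per peak, both deposited by the authors and whole numbers. The MACS2 lists deposited by the authors give a score, a fold enrichment ratio and −log10 p and q values per peak, and only their positions were used here. Peaks were called per library. Not given in the sources used here were SEACR's threshold, the reads left by downsampling and each library's depth, and no interval for depth could be computed.

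Peaks outside chromosomes 1 to 22 and X (1.02 to 3.36% of a list) were left out. Intervals were merged and compared in Python 3.11.15 with numpy 2.4.6 and pandas 2.3.3, with at least 1 bp of overlap. Tests were 2-sided exact permutation tests over lists. Wilson 95% intervals cover counting error over regions only. On 5000 simulated regions all 200 planted private regions of each antibody were recovered, and the overlap code and bedtools 2.31.1 both found 3747 overlapping peaks. Every simulated list held all shared regions and all private regions of its antibody. The simulation thus checked the code and not the rule of 3 of 4 lists. Libraries are matched by extraction and cycle number, which the replicate numbers follow, and the unpaired fit was reported first. The regions named are the 10 strongest in all 4 lists and the widest. The members, windows and lists were chosen with earlier results of these data known. Alternatives covered list size, overlap, merging, single libraries and the pairing. Genes and sequences were not assigned, since no hg19 reference was used here.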

Additional observations from a re-analysis of the deposited data

Results flagged for a closer look

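In 27 groups of 4 lists checked, 3 had a value far from the other 3 by Dixon's criterion, which chance gives in about 1 in 20 groups. The ab177178 column list at 11 cycles had 10.8% of its peak signal on mitochondrial DNA, where the other ab177178 lists had 2.72 to 2.93%. The ab4729 column list at 11 cycles had a median maximum signal of 9, where the others had 6. The CST9733 column list at 11 cycles overlapped 30.5% of the regions shared by both H3K27ac antibodies.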

How the results depend on the processing

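With the replicate block (lists paired by extraction and cycle number) the differences were the same size, peak number staying at 0.64 in log2, but 4 pairs allow no exact p below 0.13, and the overlap difference of 3.28 lost its call. Leaving out a list gave 2.21 to 4.94 for it, and 11 or 13 cycles alone 7.45 and 4.82, where no test can pass. Directions reversed for covered length at equal list sizes (-0.0458), for median width at 13 cycles alone (0.0536), and for the share near outermost peaks at 11 cycles alone (0.57) and without single lists (-0.50 to 0.25). Recovery by Diagenode lists alone (-18.8) and Active Motif lists alone (-23.2) kept its direction with too few lists to pass. Regions private to ab177178 numbered 152 when all 4 lists were required, 207 at equal list sizes and 243 to 850 without single lists. For ab4729 these were 23, 306 and 37 to 302. The share of ab177178 regions on H3K27me3 was 23.7% at equal list sizes, 12.2% with 50% of the region covered, 12.4% with peaks within 1 kb merged, 6.12% without the windows and 7.77 to 27.1% without single lists. In the windows lay 9.21% of those in all 4 lists, 16.9% at equal sizes, 9.17% with 50% covered, 9.04% with peaks merged and 5.18 to 22.9% without single lists. Of ab4729 regions in all 4 lists, 8.70% were on H3K27me3 and 8.70% in the windows. With 50% covered 1.53% were on H3K27me3, and without single lists 2.40 to 5.51% were on H3K27me3 and 0.993 to 5.41% in the windows. Chromosomes 16, 17 and 19 held 26.1% of ab4729 regions at equal sizes and 29.5 to 40.4% without single lists. For each of these shares the cause was not tested. Peak number at equal list sizes and the share in the windows with the windows left out give no value. Bins dense in H3K27me3, tried in place of the windows, held 36.9% of all regions. The values at 11 or 13 cycles alone, and members chosen without each list, were added after seeing the data. Few lists, unknown read depth and unrepeated protocols limit every comparison.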
